A study of Mus musculus with 4 samples.

Results

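Heat shock proteins and their partner chaperones formed a group of 10 genes among the 12067 genes of the deposited Quant-seq count table: *Hspb1*, *Hspa8*, *Hsph1*, *Hspa5*, *Hsp90aa1*, *Hsp90ab1*, *Dnaja1*, *Dnajb1*, *Hspd1* and *Hspe1*. They were taken by symbol, and all 10 were in the table. The group was chosen by gene function together with the genotype difference of *Hspb1* in these same libraries, so the values of *Hspb1* are a description and carry no test. The libraries came from KL cells of donor origin, myeloid progenitors that carry c-Kit but neither lineage markers nor Sca-1, sorted at 20 weeks from *Ptprca* mice that had received whole bone marrow. There were 2 BcorΔE9-10 libraries, whose donors are labelled scl-Cre-ERT +; Bcorfl/y, and 2 BcorWT libraries, whose donors are labelled Bcorfl/y and lacked the Cre transgene. The loxP-flanked *Bcor* allele was thus common to all donors, which were adult mice and, by the study's methods for molecular work, male. Cre from this transgene acts in haematopoietic stem cells once tamoxifen is given, and removing exons 9 and 10 shifts the reading frame of *Bcor*, a gene of the X chromosome that encodes a subunit of a Polycomb complex. By the methods, the recipients were sub-lethally irradiated female mice, which keep some haematopoietic cells of their own. The study describes the sorted cells as donor-derived, and its methods name CD45.2 as the donor marker for chimerism. The comparison addressed how loss of full-length *Bcor* in transplanted marrow relates to transcript levels in myeloid progenitors. The study describes donors of both genotypes as treated with tamoxifen. Only BcorΔE9-10 donors carried the Cre transgene, so its effects and those of *Bcor* loss cannot be told apart here. No source states that donors given to different recipients were different animals, so the p-values below measure only the spread between these libraries.

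Chaperones bind proteins that are unfolded, newly made or damaged. HSP70 proteins hold exposed stretches of a client through cycles of ATP use, J-domain proteins such as *Dnaja1* and *Dnajb1* deliver clients and start the cycle, HSP110 proteins such as *Hsph1* release the nucleotide, and HSP90 proteins finish the folding of kinases and receptors. Small heat shock proteins such as *Hspb1* hold clients without ATP, and the chaperonin of the mitochondrial matrix, made of *Hspd1* and *Hspe1*, encloses them. Many of these genes are induced by the transcription factor HSF1 through heat shock elements, runs of the unit GAA in alternating orientation, whereas *Hspa5* is induced by stress of the endoplasmic reticulum through a different element.

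Promoter windows were searched for the sequence features by which such genes are known to be induced, and matches of 5 genes are shown. Windows from 250 bases before to 50 bases after the annotated start were read from RefSeq (GRCm38.p6), in which 7 of the 10 genes had 12 windows. A heat shock element of 2 units was searched as GAANNTTC or TTCNNGAA, each of which reads the same on both strands. It was present for 5 of the 7 genes (71.4%), *Hspb1*, *Hsph1*, *Dnaja1*, *Hspd1* and *Hspe1*, for 22 of 107 other chaperone genes (20.6%), for 13.9% of the genes of the count table that had a window and for 17.0% of all 27025 genes with one. An element of 3 units (GAANNTTCNNGAA or TTCNNGAANNTTC), which contains the 2-unit form, was found for *Hsph1*, *Hspd1* and *Hspe1*, for 1.87% of the other chaperone genes and for 0.662% of all genes. The endoplasmic reticulum stress element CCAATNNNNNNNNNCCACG, searched on both strands, was found for *Hspa5*, for 6 of the 107 other chaperone genes (5.61%) and for 0.137% of all genes. The windows of *Dnajb1* held none of these letter patterns. The stretches below run 5′ to 3′ on the strand of the gene, with the matched letters in capitals.

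*Hspb1*, chr5:135887787-135887844, plus strand: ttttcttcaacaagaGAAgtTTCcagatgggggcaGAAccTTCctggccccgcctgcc
*Hsph1*, chr5:149636351-149636380, minus strand: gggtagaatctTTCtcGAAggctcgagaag
*Dnaja1*, chr4:40722333-40722362, plus strand: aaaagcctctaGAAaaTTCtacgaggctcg
*Hspe1*, chr1:55088053-55088082, plus strand: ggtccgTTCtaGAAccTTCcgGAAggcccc
*Hspa5*, chr2:34772020-34772048, plus strand: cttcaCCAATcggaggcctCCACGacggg

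The *Hspb1* stretch held 2 separate 2-unit elements, and the *Hspe1* stretch held an unbroken run that makes up both 3-unit forms. *Hspd1* and *Hspe1* are transcribed away from each other, and the *Hspe1* stretch also lies in the *Hspd1* window, where it is read on the minus strand. The *Hsph1* stretch shows a 2-unit element, and its 3-unit element lies after the annotated start. A match of letters is a description and does not show that a factor was bound in these cells.

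In Quant-seq the reads come from the 3′ end of each polyadenylated transcript, so that the number of reads does not grow with transcript length and levels are given as CPM (counts divided by the library's scaled size) without division by length, scaled by edgeR's TMM factors. The deposited counts added up to between 3825289.5 and 6253100.5 per library, and 3 counts were worth between 0.489 and 0.876 CPM. The single transcript *Gm42418* held 16.3 and 14.3% of the counts of BcorΔE9-10 replicates 1 and 2 and 27.9 and 1.43% of those of BcorWT replicates 1 and 2. *Bcor* itself, with 104 and 113 counts in BcorΔE9-10 and 58 and 79 in BcorWT, does not check the genotype, since the deletion is internal and the reads come from the 3′ end. *Xist*, the transcript of the inactive X chromosome of female cells, had 13 and 24 counts in BcorΔE9-10 and 64 and 101 in BcorWT, a log2 fold change of -2.56 (SE 0.47). The part of recipient-derived cells in any result was not tested. In bulk libraries such as these, fewer cells of a type and less RNA per cell cannot be told apart.

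The levels of the 10 genes spanned a wide range. *Hsp90ab1*, the constitutive cytosolic HSP90, ranked as number 10 of 12067 genes by its mean of 4499 CPM over the 4 libraries. It was followed by *Hspa5* (2072 CPM), *Hsp90aa1* (1252 CPM), *Hspa8* (1158 CPM), *Hspd1* (521 CPM), *Dnaja1* (394 CPM), *Dnajb1* (179 CPM), *Hspe1* (125 CPM) and *Hsph1* (27.2 CPM). *Hspb1*, at 5.88 CPM, was the lowest and ranked as number 9488. Neighbours in this order stood in the same order in 4 of 4 libraries, with the exception of *Hsp90aa1* and *Hspa8*, which exchanged places in BcorWT replicate 2 and were thus not separated beyond their spread. The 10 genes together held 1.00 and 0.785% of all counts in BcorΔE9-10 replicates 1 and 2 and 1.07 and 1.23% in BcorWT replicates 1 and 2. On the scaled basis they summed to 9358 and 8003 CPM in BcorΔE9-10 and to 11995 and 11577 CPM in BcorWT.

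**Figure D1:**
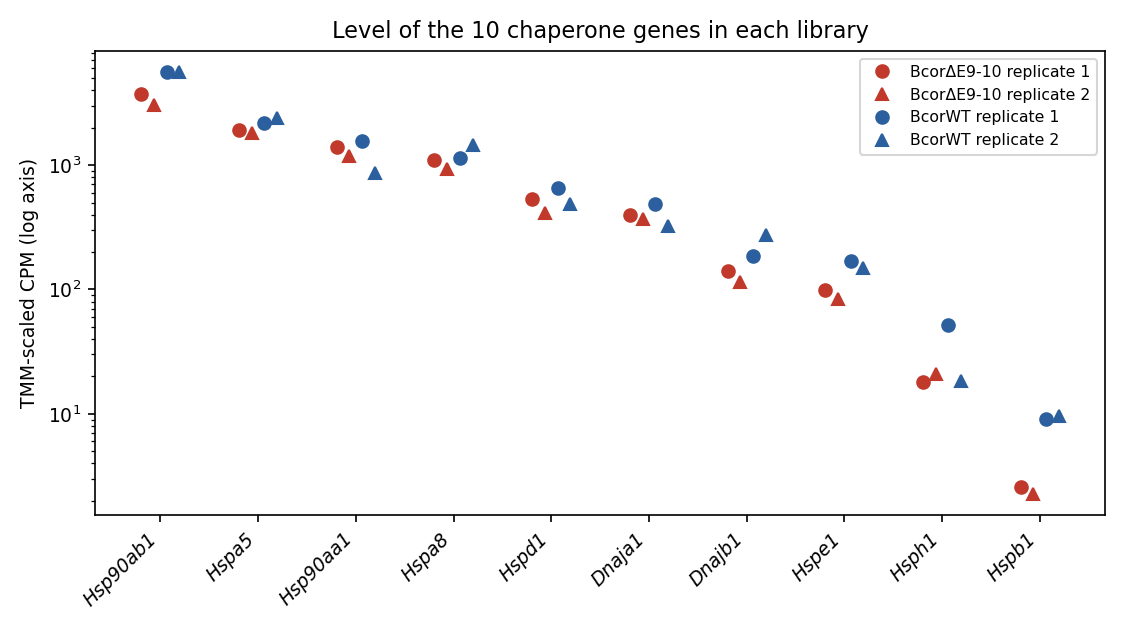
TMM-scaled CPM (log axis) of each of the 10 chaperone genes in each library, ordered by the mean over the 4 libraries. Red symbols are BcorΔE9-10, blue symbols are BcorWT, circles are replicate 1 and triangles are replicate 2. The levels run from *Hsp90ab1* at 3067 CPM or more to *Hspb1* at 9.60 CPM or less. Both red symbols lie below both blue symbols for 6 of the 10 genes, or 5 of 9 without *Hspb1*, against 17.1% of all genes.

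*Hspb1* (ENSMUSG00000004951, chr5:135887919-135889563, plus strand of GRCm38) encodes HSP27, a small heat shock protein that forms large oligomers and also binds actin filaments. It had 14 and 14 counts in BcorΔE9-10 replicates 1 and 2 and 31 and 51 counts in BcorWT replicates 1 and 2. Scaled, these were 2.59 and 2.28 CPM against 9.05 and 9.60 CPM. Both BcorΔE9-10 libraries were thus low and alike, and both BcorWT libraries were high and alike. The means were 2.43 ± 0.216 CPM (SD, n = 2) and 9.33 ± 0.385 CPM (SD, n = 2). By edgeR's fit, *Hspb1* was 3.81-fold lower in BcorΔE9-10. The log2 fold change, BcorΔE9-10 minus BcorWT, was -1.93 (SE 0.53) and took number 130 of 12067 genes counted from the lowest. The depth behind it was small, because a count of 14 has an exact 95% Poisson interval of 7.65 to 23.5, a count of 31 one of 21.1 to 44.0 and a count of 51 one of 38.0 to 67.1, which cover counting error only. With any single library left out the log2 fold change lay between -2.02 and -1.84. Because this difference was known when *Hspb1* was chosen, its rank and its steadiness lend it no support. Of the other 9 small heat shock genes looked for, *Hspb6* and *Hspb11* were in the table. *Hspb6* had 6 and 22 counts in BcorΔE9-10 and 1 and 30 counts in BcorWT, and *Hspb11* had 18 and 25 against 19 and 21, so that the groups overlapped for both.

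The HSP70 system was represented by a cytosolic HSP70, its HSP110 partner and a pair of J-domain proteins. *Hspa8* (ENSMUSG00000015656, chr9:40800984-40810087, plus strand), the constitutive HSP70 of the cytosol, had 5997 and 5730 counts in BcorΔE9-10 and 3908 and 7697 counts in BcorWT. In CPM this gave 1108 and 934 against 1141 and 1448. The groups did not overlap, but BcorWT replicate 1 lay just above BcorΔE9-10 replicate 1. The log2 fold change was -0.34 (SE 0.34, 95% interval -1.13 to 0.45, edgeR's quasi-likelihood test, adjusted p = 0.946). It was -0.51 without BcorWT replicate 1 and -0.16 without BcorWT replicate 2. The 2 BcorWT libraries differed by as much as the genotypes did.

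*Hsph1* (ENSMUSG00000029657, chr5:149614287-149636376, minus strand), which encodes the HSP110 that resets HSP70, had 97 and 128 counts in BcorΔE9-10 and 177 and 98 in BcorWT. These were 17.9 and 20.9 CPM against 51.7 and 18.4 CPM. A single library, BcorWT replicate 1, stood above the rest at 2.80-fold the level of BcorWT replicate 2, and the groups overlapped. The log2 fold change of -0.84 (SE 0.49, edgeR adjusted p = 0.945) rested on that library, since it was 0.07 without it and -1.41 without BcorWT replicate 2.

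*Dnajb1* (ENSMUSG00000005483, chr8:83608193-83612653, plus strand), the heat-inducible J-domain protein HSP40, had 759 and 698 counts in BcorΔE9-10 and 641 and 1463 in BcorWT. The scaled levels were 140 and 114 CPM against 187 and 275 CPM, without overlap. The log2 fold change was -0.86 (SE 0.35, 95% interval -1.66 to -0.07) and lay between -1.12 and -0.56 with any single library left out. The adjusted p of edgeR over all genes was 0.945, so that the gene did not pass. Over the other settings that kept all 4 libraries, its adjusted p ran from 0.880 in limma-voom to 0.99997 in DESeq2. *Dnaja1* (ENSMUSG00000028410, chr4:40722150-40737149, plus strand), a J-domain protein with a lipid anchor, had 2141 and 2267 counts in BcorΔE9-10 and 1679 and 1706 in BcorWT, or 396 and 370 CPM against 490 and 321 CPM. Its groups overlapped, with a log2 fold change of -0.08 (SE 0.35, 95% interval -0.89 to 0.72, edgeR adjusted p = 0.986). It was 0.25 without BcorWT replicate 1 and -0.36 without BcorWT replicate 2. There were 2.82 and 3.25 *Dnaja1* counts for each *Dnajb1* count in BcorΔE9-10 and 2.62 and 1.17 in BcorWT, so that BcorWT replicate 2 stood apart from the other libraries. *Dnaja1* shares 608 bases at its 3′ end with *Smu1* on the opposite strand, which had 551 and 789 counts in BcorΔE9-10 and 324 and 590 in BcorWT. Whether strand was used in the counting is not given in the sources used here, so reads in the shared stretch cannot be assigned to either gene with certainty.

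*Hspa5* (ENSMUSG00000026864, chr2:34771970-34777547, plus strand), the HSP70 of the endoplasmic reticulum, known as BiP, had 10357 and 11112 counts in BcorΔE9-10 and 7469 and 12656 in BcorWT. In CPM these were 1914 and 1811 against 2181 and 2382, without overlap. The log2 fold change was -0.29 (SE 0.34, 95% interval -1.07 to 0.49, edgeR adjusted p = 0.952), and it lay between -0.36 and -0.23 with any single library left out. *Hspa8* stood at 0.579 and 0.516 counts for each *Hspa5* count in BcorΔE9-10 and at 0.523 and 0.608 in BcorWT, so the proportion of the cytosolic to the endoplasmic reticulum HSP70 overlapped between genotypes.

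Both HSP90 genes of the cytosol were among the most abundant of the 10. *Hsp90ab1* (ENSMUSG00000023944, chr17:45567775-45573271, minus strand) had 20315 and 18814 counts in BcorΔE9-10 and 19021 and 29863 in BcorWT. These were 3755 and 3067 CPM against 5555 and 5620 CPM, so that the BcorWT libraries nearly coincided and lay above both BcorΔE9-10 libraries. The means were 3411 ± 486 CPM and 5587 ± 45.9 CPM (SD, n = 2 each), 1.64-fold lower in BcorΔE9-10, and the log2 fold change was -0.71 (SE 0.36, 95% interval -1.55 to 0.12, edgeR adjusted p = 0.945). *Hsp90aa1* (ENSMUSG00000021270, chr12:110690605-110702728, minus strand), the inducible HSP90, had 7560 and 7278 counts in BcorΔE9-10 and 5344 and 4592 in BcorWT. In CPM it stood at 1397 and 1186 against 1561 and 864. The BcorWT libraries were thus the highest and the lowest of the 4, 1.81-fold apart, and enclosed both BcorΔE9-10 libraries. Its log2 fold change was 0.09 (SE 0.39, 95% interval -0.82 to 1.00, edgeR adjusted p = 0.986), with -0.27 when BcorWT replicate 2 was left out and 0.58 when BcorWT replicate 1 was. For each *Hsp90aa1* count there were 2.69 and 2.59 *Hsp90ab1* counts in BcorΔE9-10 and 3.56 and 6.50 in BcorWT. The ratio was lower in both BcorΔE9-10 libraries, and this difference was not tested.

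The genes of the mitochondrial chaperonin are neighbours on chromosome 1. *Hspd1* (ENSMUSG00000025980, chr1:55077835-55088243, minus strand) encodes the HSP60 barrel and *Hspe1* (ENSMUSG00000073676, chr1:55088132-55091307, plus strand) its HSP10 lid, and their annotated 5′ ends overlap by 112 bases. *Hspe1* had 534 and 515 counts in BcorΔE9-10 and 577 and 791 in BcorWT, which made 98.7 and 83.9 CPM against 169 and 149 CPM. The groups were well apart, with means of 91.3 ± 10.4 CPM and 159 ± 13.9 CPM (SD, n = 2 each), 1.74-fold lower in BcorΔE9-10. The log2 fold change was -0.80 (SE 0.31, 95% interval -1.52 to -0.07, edgeR adjusted p = 0.945) and stayed between -0.92 and -0.68 with any single library left out. *Hspd1* had 2862 and 2541 counts in BcorΔE9-10 and 2227 and 2604 in BcorWT, or 529 and 414 CPM against 650 and 490 CPM. Here the groups overlapped, since BcorΔE9-10 replicate 1 lay above BcorWT replicate 2. The log2 fold change was -0.27 (SE 0.34, 95% interval -1.07 to 0.52, edgeR adjusted p = 0.954) and lay between -0.46 and -0.06 with any single library left out. There were 5.36 and 4.93 *Hspd1* counts for each *Hspe1* count in BcorΔE9-10 and 3.86 and 3.29 in BcorWT. The proportion of the barrel transcript to the lid transcript was thus higher in both BcorΔE9-10 libraries, a difference that was not tested.

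Of the 10 genes, 9 had a lower mean log2 level in BcorΔE9-10 (8 of 9 without *Hspb1*) and 1, *Hsp90aa1*, a higher one. The median log2 fold change was -0.53, or -0.34 without *Hspb1*, against -0.03 over all 12067 genes. The groups did not overlap for 6 of the 10, all of them lower in BcorΔE9-10 (*Hspb1*, *Hspa8*, *Hspa5*, *Hsp90ab1*, *Dnajb1* and *Hspe1*), or 5 of 9 without *Hspb1*. Of all genes, 33.9% did not overlap, 17.1% lower and 16.8% higher. Apart from *Hspb1*, 2 of 9 genes (*Dnajb1* and *Hspe1*) had an unadjusted p under 0.05 in edgeR, against 4.42% of all genes in either direction, 3.07% lower and 1.34% higher. Because the genes were picked with results of this contrast known, nothing is read from these shares. None of these 9 genes passed an adjusted p of 0.05 in edgeR (0 of 9, against 0.0166% of all genes), limma-voom or DESeq2. An unadjusted p under 0.05 was reached by 2 of the 9 in edgeR, by 3 in limma-voom, against 4.27% of all genes, and by 3 in DESeq2, against 4.19%.

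**Figure D2:**
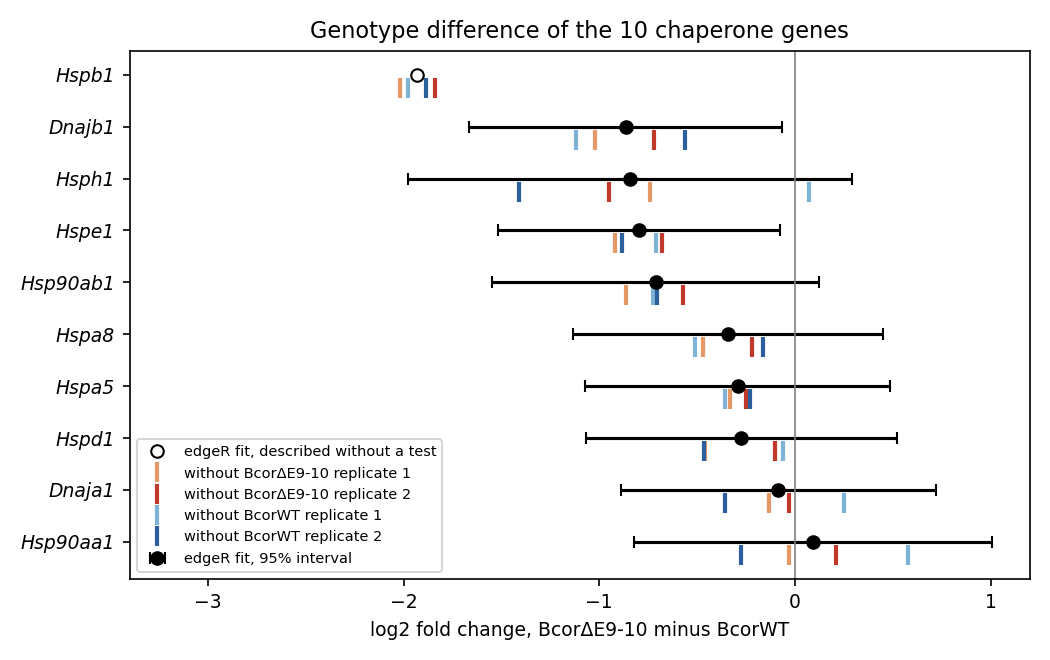
Log2 fold change, BcorΔE9-10 minus BcorWT, of the 10 chaperone genes, from edgeR's fit on 4 libraries. Filled points carry 95% intervals, the open point of *Hspb1* is a description without an interval, and coloured ticks are the values with 1 library left out. The values run from -1.93 for *Hspb1* to 0.09 for *Hsp90aa1*, and the ticks cross 0 for *Hsph1*, *Dnaja1* and *Hsp90aa1*.

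The differences were also set against the spread within each genotype. Over the 10 genes, the median size of the genotype difference was 0.53 on the log2 scale, that of the log2 ratio of BcorWT replicate 2 to replicate 1 was 0.38, and that of BcorΔE9-10 replicate 2 to replicate 1 was 0.23. Without *Hspb1* they were 0.34, 0.41 and 0.24 over the other 9 genes, so that the order of the genotype difference and the BcorWT spread turned. Over all 12067 genes these medians were 0.33, 0.56 and 0.30. For 5 of the 10 genes, *Hspa8*, *Hsph1*, *Hsp90aa1*, *Dnaja1* and *Hspd1*, the BcorWT libraries differed from each other by more than the genotypes did, as they did for 8241 of all 12067 genes (68.3%). *Hspb1*, *Hspa5*, *Hsp90ab1*, *Dnajb1* and *Hspe1* differed more between the genotypes than between the BcorWT libraries.

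**Figure D3:**
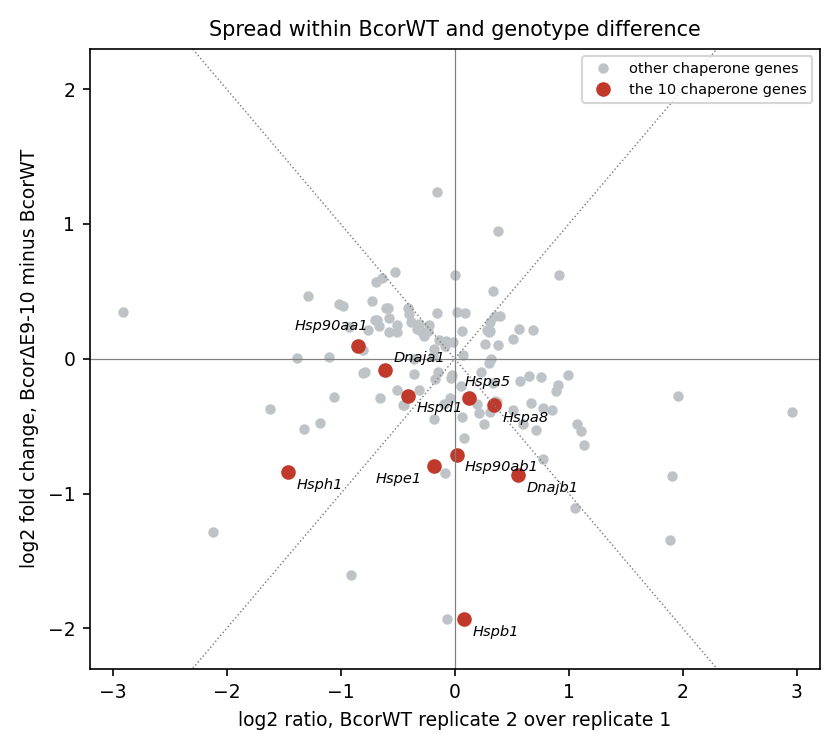
Log2 ratio of BcorWT replicate 2 to replicate 1 (x axis) and log2 fold change, BcorΔE9-10 minus BcorWT (y axis), of the 10 chaperone genes (red, named) and of the other chaperone genes in the table (grey). Both axes use the BcorWT libraries. Dotted diagonals mark equal size, and the 5 named genes between the diagonals and the x axis differ more within BcorWT than between genotypes. *Hspb1*, whose genotype difference was known when it was chosen, lies at 0.08 on the x axis and -1.93 on the y axis.

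Reads of several of these genes may be split between the gene and processed pseudogenes that copy its transcript. Whether the copies match at the 3′ ends, where the reads come from, was not tested. There were 14 annotated pseudogenes in the table that matched one of the 10 genes with at least 90% identity over at least 100 bases, 8 of them for *Hspa8*, 2 each for *Dnaja1* and *Hsp90aa1* and 1 each for *Hspd1* and *Hsp90ab1*. For *Hspa8* they held 11.9 and 13.4% of the counts of gene and pseudogenes in BcorΔE9-10 and 7.83 and 21.8% in BcorWT. The share was lowest and highest in the 2 BcorWT libraries, and *Gm15459*, 99.7% identical to *Hspa8*, had 124 counts in BcorWT replicate 1 and 847 in replicate 2. For *Dnaja1* the share was 15.2 and 12.9% in BcorΔE9-10 and 18.1 and 21.5% in BcorWT. For *Hsp90aa1* it was 10.9% in BcorWT replicate 1 and between 3.27 and 3.72% in the other 3 libraries, carried by *Gm12346* (99.5% identical) with 615 counts in BcorWT replicate 1 and 181, 162 and 96 in the others. With the pseudogene counts added to their gene, an alternative chosen after the data were seen, *Hspa8* stood at 1258 and 1079 CPM in BcorΔE9-10 and 1238 and 1851 CPM in BcorWT. Its groups then overlapped, and the number of the 10 genes without overlap was 5, against 33.9% of all genes. The log2 fold changes were then -0.40 for *Hspa8*, -0.18 for *Dnaja1*, 0.02 for *Hsp90aa1*, -0.71 for *Hsp90ab1* and -0.27 for *Hspd1*. *Hspb1*, *Hspa5*, *Hsph1*, *Dnajb1* and *Hspe1* had no such pseudogene in the table.

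**Figure D4:**
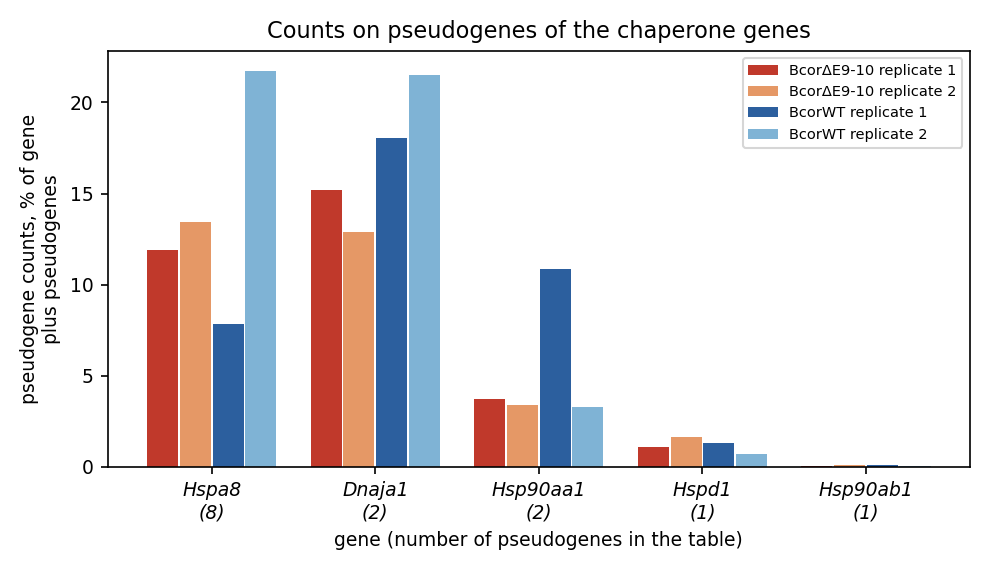
Counts assigned to pseudogenes as a percentage of the counts of the gene plus its pseudogenes, for the 5 chaperone genes with such pseudogenes in the table, in each library. The number of pseudogenes stands under each gene. The *Hspa8* share runs from 7.83 to 21.8%, with both extremes in BcorWT, and the *Hsp90aa1* share is 10.9% in BcorWT replicate 1 alone.

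The wider chaperone network was described with lists of 144 genes, of which 127 were in the table. In BcorΔE9-10, 60 of them were higher and 67 lower, with a median log2 fold change of -0.10, and of 0.00 over the 117 that are not among the 10 genes above. The direction of the median over the 127 genes turned without BcorWT replicate 1, where it was 0.057. Leaving *Hspb1* aside, 5 of 126 genes had an unadjusted p under 0.05 in edgeR, with all 5 lower. They were *Dnajb1*, *Hspe1*, *Hspa1a*, *Hspa1b* and *Stip1*, and outside the 10 genes above the count was 3 of 117 (2.56%). None of the 126 passed the adjusted p in edgeR or limma-voom, where 5 (3.97%, against 4.42% of all genes) and 6 (4.76%, against 4.27%) had an unadjusted p under 0.05. DESeq2 passed 2, against 43 of all 12067 genes (0.356%).

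Those 2 were *Hspa1a* and *Hspa1b*, the stress-inducible HSP70 genes, which are near-identical copies on chromosome 17. Reads may be split between them, which was not tested. *Hspa1a* had 938 and 1025 counts in BcorΔE9-10 and 2272 and 3367 in BcorWT, or 173 and 167 CPM against 663 and 634 CPM. Both genotypes were tight and well apart, with a log2 fold change of -1.93 (SE 0.32) and an adjusted p of 0.419 in edgeR. That adjusted p was 5.10e-05 in DESeq2 and ran up to 0.999 over the settings, while the log2 fold change lay between -1.96 and -1.90. *Hspa1b* had 501 and 561 counts in BcorΔE9-10 and 1255 and 1034 in BcorWT, or 92.6 and 91.4 CPM against 366 and 195 CPM. The groups did not overlap, and the log2 fold change was -1.61 (SE 0.39, edgeR adjusted p = 0.814, and 0.0373 in DESeq2). Over the settings that kept all 4 libraries, its adjusted p ran from 0.0373 in DESeq2 to 0.880 in limma-voom. Over all settings the log2 fold change ran from -1.99 to -1.08. Their windows hold the same 2-unit heat shock element, shown here because the stretches are identical in both genes.

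*Hspa1a*, chr17:34972242-34972271, minus strand: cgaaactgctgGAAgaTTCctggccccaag
*Hspa1b*, chr17:34959324-34959353, minus strand: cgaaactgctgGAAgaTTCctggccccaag

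For each list, counts and medians cover all of its genes in the table, whereas the highest and the lowest gene are named among those with a mean of at least 5 CPM. Among the HSP70 and HSP110 genes as a whole, 5 of 13 were higher and 8 lower (median -0.29). The highest at that level was *Hspa2*, an HSP70 known from the testis, with 39 and 43 counts in BcorΔE9-10 and 11 and 15 in BcorWT (log2 fold change 1.24, SE 0.55, adjusted p = 0.945 in edgeR). *Hspa9*, the mitochondrial HSP70, had 580 and 641 against 451 and 678 counts and a log2 fold change of -0.29 (SE 0.30). Of 4 HSP90 genes 3 were lower (median -0.14), and *Hsp90b1*, the HSP90 of the endoplasmic reticulum, had a log2 fold change of -0.11 (SE 0.38).

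Among 18 co-chaperones of HSP90, 8 were higher and 10 lower (median -0.07). *Stip1*, the adaptor that joins HSP70 to HSP90, had 405 and 450 counts in BcorΔE9-10 and 354 and 1145 in BcorWT (log2 fold change -1.11, SE 0.41, edgeR adjusted p = 0.945), and BcorWT replicate 2 stood far above replicate 1. *Sugt1*, the highest of these, was at 0.38. Of the nucleotide exchange factors 2 of 10 were higher and 8 lower (median -0.32), from *Bag5* at 0.32 to *Hspbp1* at -1.34 (SE 0.59). *Hspbp1* had 78 and 66 counts in BcorΔE9-10 and 45 and 266 in BcorWT, so that its groups overlapped and BcorWT replicate 2 alone was high. Without BcorWT replicate 1, whose removal leaves a single control, *Stip1*, *Hspbp1*, *Fkbp8*, *Hspa1a* and *Hspa1b* had an adjusted p under 0.05 in edgeR, as did 596 of 12063 genes tested (4.94%). Without BcorWT replicate 2, *Hspa1a* (adjusted p = 0.0251) and *Hspa1b* (adjusted p = 0.0217) did, as did 30 of 12061 genes (0.249%).

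Of the J-domain A and B families 5 of 10 were higher and 5 lower (median -0.04, against -0.03 over all genes), from *Dnajb14* at 0.62 to *Dnajb1* at -0.86. Of the C family, whose members serve varied compartments, 20 of 28 were higher and 8 lower (median 0.26). Among those with a mean of at least 5 CPM they ran from *Dnajc25* at 0.60 to *Dnajc16* at -0.28, and below that level *Dnajc24* was at 0.95 (SE 0.60), *Hscb* at 0.65 (SE 0.66) and *Dnajc27* at 0.62 (SE 0.71). None of the 28 had an unadjusted p under 0.05 in edgeR.

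Chaperonin genes, the cytosolic TRiC subunits together with *Hspd1* and *Hspe1*, were higher in 6 of 10 (median 0.13), with *Cct6a* at 0.29 as the highest and *Hspe1* as the lowest. Prefoldin subunits, which hand clients to TRiC, were higher in 5 of 9 (median 0.10), from *Pfdn4* at 0.30 to *Pfdn2* at -0.45. Folding genes of the endoplasmic reticulum were higher in 9 of 22 and lower in 13 (median -0.11), from *Herpud1*, a degradation factor, at 0.43 to *Pdia4*, a disulfide isomerase, at -0.52. Folding genes of the mitochondrion were higher in 3 of 14 and lower in 11 (median -0.26), with *Clpx*, an unfoldase, the highest at 0.57 and *Hspe1* the lowest. Of the heat shock factors and their binding protein, 3 of 6 were in the table. *Hsf1* had 34 and 35 counts in BcorΔE9-10 and 24 and 43 in BcorWT (log2 fold change -0.34, SE 0.48, adjusted p = 0.960 in edgeR), and *Hsbp1*, which binds HSF1, was at 0.15.

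**Figure D5:**
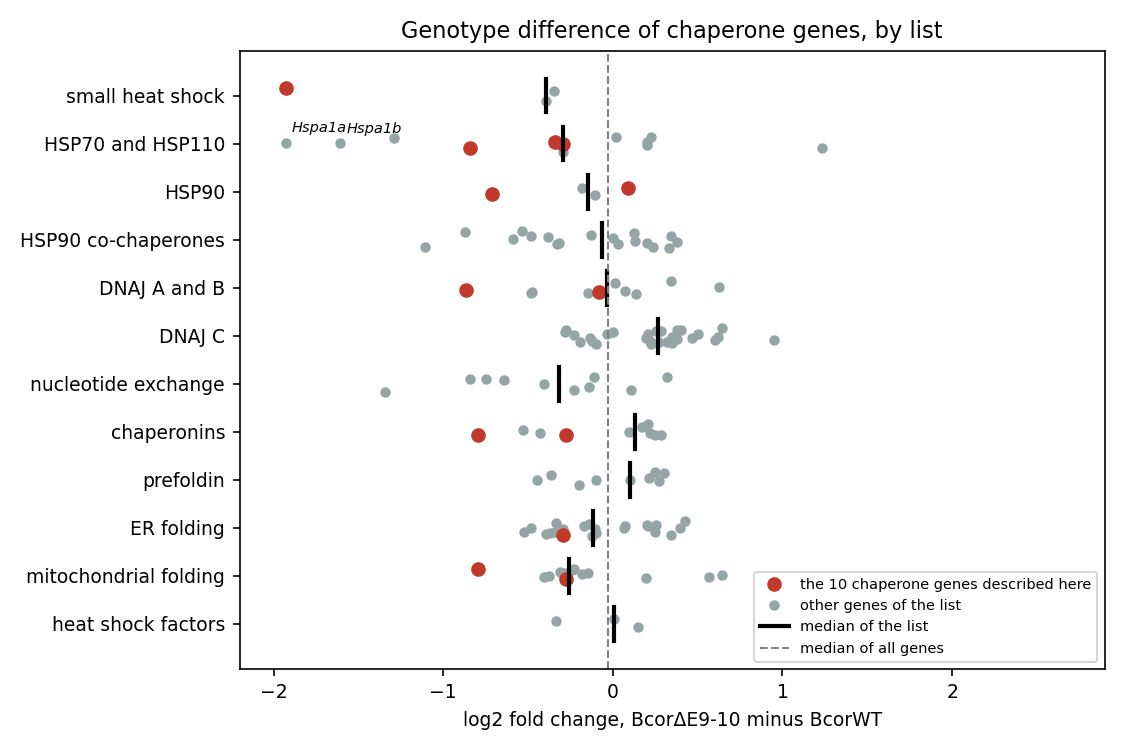
Log2 fold change, BcorΔE9-10 minus BcorWT, of the 127 chaperone genes in the table, 1 row of points per list, with the 10 genes described above in red. Black bars are list medians and the dashed line is the median of all genes (-0.03). A gene can stand in more than 1 list. Medians run from -0.39 for the 3 small heat shock genes to 0.26 for the J-domain C family, and *Hspb1* and *Hspa1a* have the lowest values, both at -1.93.

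Other markers differed between the same libraries. Of 9 markers of eosinophils, basophils and mast cells, 8 were in the table, and all 8 were lower in BcorΔE9-10 without overlap, as were 17.1% of all genes. An unadjusted p under 0.05 in edgeR was reached by 6 of the 8, while 3.07% of all genes were lower at that p. Their summed level was 271 and 244 CPM in BcorΔE9-10 and 579 and 756 CPM in BcorWT. Of 10 erythroid markers 6 were in the table and all 6 were higher without overlap, as were 16.8% of all genes, and 2 of the 6 had an unadjusted p under 0.05 in edgeR, while 1.34% of all genes were higher at that p. They summed to 124 and 120 CPM in BcorΔE9-10 and 56.9 and 79.2 CPM in BcorWT. The 9 progenitor markers, *Kit*, *Cd34* and *Mpo* among them, were all present and summed to 11068 and 8335 CPM in BcorΔE9-10 and 11229 and 11201 CPM in BcorWT. Neutrophil markers summed to 63232 and 154919 CPM against 94248 and 143200 CPM, and monocyte and dendritic markers to 306 and 255 CPM against 352 and 399 CPM. Megakaryocyte markers summed to 108 and 141 CPM against 110 and 266 CPM, and 2 of 8 lymphoid markers to 152 and 132 CPM against 131 and 257 CPM. Of 7 stem cell markers 2 were in the table, at 11.5 and 14.2 CPM against 17.8 and 11.1 CPM. The 16 genes taken as induced by tissue handling, *Jun*, *Fos* and *Egr1* among them, included no heat shock gene. They summed to 5878 and 5084 CPM in BcorΔE9-10 and 6829 and 5030 CPM in BcorWT, with a median log2 fold change of -0.02. Of these 16 genes, 4 were lower and 1 higher without overlap (31.2%, against 33.9% of all genes), and none had an unadjusted p under 0.05 in edgeR. The part of these cell types and of handling in the chaperone differences was not tested.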

How the data were processed

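Quant-seq 3′ libraries of sorted KL cells were analysed, 2 per genotype. After a quality filter, the authors trimmed the reads (cutadapt), aligned them to mm10 (HISAT2), counted them per gene (subread) and deposited raw counts. In BcorΔE9-10 replicate 2 and BcorWT replicate 1 the deposited values were taken for expected counts, because *Gm4430* is not whole there, and were rounded. The filter behind the table and the strand setting are not given in the sources used here. 0 columns belonged to other samples.

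The genotypes were compared with edgeR 4.0.16 (R 4.3.3, filterByExpr, which removed 0 genes, TMM, quasi-likelihood F test, prior count 0.125, Benjamini-Hochberg adjustment over 12067 genes). The SE is the log2 fold change divided by the square root of F, and intervals are 95%. The study used limma. Alternatives were DESeq2 size factors, no filter, at least 10 counts per library, a replicate block, limma-voom (3.58.1), DESeq2 1.42.0, prior count 2, removal of *Gm42418*, each library left out and pseudogene counts added, the last chosen after the data were seen. Replicate numbers come from the labels, and same-numbered libraries, from different recipients, had deviations correlated at -0.0945. With 2 libraries per genotype this value cannot exclude a shared batch, so whether the numbers pair the libraries is not known. An exact permutation test of 2 against 2 cannot go below p = 0.333 (two-sided).

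*Hspb1* entered the fit but is left out of counts of calls. The members, lists and tests were chosen with earlier results of these data known. Named genes were the members, the highest and lowest log2 fold change of each chaperone list among genes of at least 5 CPM on average, *Hspa1a*, *Hspa1b*, *Hspa9*, *Hsp90b1*, *Hsf1*, *Bcor*, *Xist* and *Gm42418*. Pseudogenes, *Hspb6*, *Hspb11*, *Smu1*, *Fkbp8*, *Dnajc24*, *Hscb*, *Dnajc27*, *Jun*, *Fos*, *Egr1* and single markers were named after their values were seen. Positions are from GENCODE M21 (GRCm38), promoter windows from RefSeq (GRCm38.p6), and pseudogenes were found by blastn (2.17.0). Plots used matplotlib 3.10.9.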

Additional observations from a re-analysis of the deposited data

How the results depend on the processing

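Of the 10 genes, 7 kept the direction of their log2 fold change in all 13 alternative settings. *Hspb1*, whose difference was known when it was chosen, is among these 7. *Hsph1* ranged from -1.41 to 0.070, *Dnaja1* from -0.36 to 0.25 and *Hsp90aa1* from -0.27 to 0.58 when 1 library was left out. Their sign turned without BcorWT replicate 1 for *Hsph1* (0.070) and *Dnaja1* (0.25), and without BcorΔE9-10 replicate 1 (-0.03) or BcorWT replicate 2 (-0.27) for *Hsp90aa1*. Of the 9 members other than *Hspb1*, none had an adjusted p under 0.05 in any setting. An unadjusted p under 0.05 in edgeR was reached by 2 (against 4.42% of all genes), and by 0 under the replicate block (against 3.85%). The count also fell with either BcorΔE9-10 library left out, where a single library remains in that group. Without overlap were 6 members, and 5 with pseudogene counts added, against 33.9% of all genes in each of these settings. With 1 library left out they numbered 7 to 10, where fewer libraries make overlap rarer (58.2 to 81.5% of all genes). The members' median of -0.53 lay between -0.61 and -0.41 with 1 library left out and was -0.51 under the replicate block, and without *Hspb1* the median of -0.34 lay between -0.47 and -0.25 and was -0.34 under the block. Chaperone genes other than *Hspb1* with an unadjusted p under 0.05 numbered 5, and 3 under the replicate block (2.38%, against 3.85% of all genes), 7 in DESeq2 (5.56% against 4.19%), 2 without BcorΔE9-10 replicate 1 (1.59% against 2.01%) or replicate 2 (1.59% against 3.10%), 26 without BcorWT replicate 1 (20.6% against 25.0%) and 8 without BcorWT replicate 2 (6.35% against 5.71%). Those with an adjusted p under 0.05 numbered 0, but 2 in DESeq2 (against 0.356% of all genes). The count also moved with either BcorWT library left out, where a single library remains in that group. The median of all 127 chaperone genes, -0.10, was -0.029 under the replicate block, -0.048 in limma-voom and -0.077 to 0.057 with 1 library left out. The cause of these shifts was not tested. A lone library is assumed to vary like the other genotype. Whether the replicate numbers pair the libraries is not known, so nothing is read from the losses under the block. Among the 10 genes, depth was lowest for *Hspb1*, with 14 to 51 counts.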
